A study of Mus musculus with 4 samples.

Results

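Binding of a Flag-tagged Isl1-Lhx3 fusion protein was examined at 10 genes: the GDNF-family receptor genes Gfra1, Gfra2, Gfra3 and Ret, the motor pool and motor column factors Pou3f1, Etv1, Etv4, Foxp1 and Runx1, and Prph, which encodes the neuronal intermediate filament peripherin. A ChIP-seq peak was assigned to one of these genes when its maximum had that gene as its nearest protein-coding transcription start in GENCODE release M1 on mm9. The rule gave 5 of 2454 nuclear peaks to 4 of the 10 genes: Gfra3 held 2 peaks, and Etv1, Gfra2 and Pou3f1 held 1 each. Gfra1, Ret, Etv4, Foxp1, Runx1 and Prph held none.

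The cells were mouse iMN-ESCs, a line derived from A172LoxP embryonic stem cells that carries a doxycycline-inducible (Dox-inducible) transgene for the fusion, isolated by neomycin selection. Embryoid bodies were grown with 0.5 µM retinoic acid for 2 days and then for 4 more days with retinoic acid and either Dox at 2 µg/mL (n = 2 libraries) or no Dox (n = 2 libraries). All cultures also received LIF in the 16 hours before harvest, so no group lacked retinoic acid or LIF. The Flag antibody was directed at the tagged fusion made from the transgene, not at the endogenous Isl1 and Lhx3 proteins. The deposited list gives 1 ChIP score, 1 background score and 1 tag count for each peak and no value for any library, so Dox was not compared with no Dox, and every value below is a description without replicate error.

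Isl1 and Lhx3, both LIM-homeodomain proteins, act together in the specification of spinal motor neurons, and homeodomains bind AT-rich letters with the core ATTA, or TAAT on the other strand. Motor neurons later divide into columns and pools, each supplying particular muscles. Target-derived GDNF acts on them through the receptor tyrosine kinase Ret and GPI-anchored co-receptors of the GFRα family, and in some pools it induces the ETS factor Etv4. Etv1 marks other pools, Pou3f1 is made in subsets of motor neurons, and Foxp1 acts with Hox proteins to set column and pool identity.

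The DNA under 3 of the 5 peaks is shown because the peaks differed in their homeodomain letters. Each run is the plus strand of mm9, 200 bases centred on the peak maximum, with every ATTA or TAAT in capitals. The Etv1 run is chr12:39821351-39821550, the Gfra2 run is chr14:71641800-71641999 and the Pou3f1 run is chr4:124349722-124349921. The Gfra2 and Pou3f1 runs each hold an ATTA followed by a TAAT with 3 bases between, whereas the Etv1 run holds a single core.

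Etv1: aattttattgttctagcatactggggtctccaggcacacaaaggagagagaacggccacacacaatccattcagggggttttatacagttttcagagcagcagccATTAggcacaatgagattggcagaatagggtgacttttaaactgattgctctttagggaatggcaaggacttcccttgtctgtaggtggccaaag
Gfra2: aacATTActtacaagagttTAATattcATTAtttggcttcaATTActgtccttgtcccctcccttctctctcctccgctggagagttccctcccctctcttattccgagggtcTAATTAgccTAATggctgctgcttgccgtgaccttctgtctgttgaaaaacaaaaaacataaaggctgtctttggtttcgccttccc
Pou3f1: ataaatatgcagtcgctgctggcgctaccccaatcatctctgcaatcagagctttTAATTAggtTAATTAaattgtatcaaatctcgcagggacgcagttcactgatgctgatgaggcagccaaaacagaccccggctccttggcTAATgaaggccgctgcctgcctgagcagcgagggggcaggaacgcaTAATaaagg

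With 4 of 10 genes holding a peak, the share was 40% (12.2 to 73.8, exact binomial 95% interval), where 8.16% of 22367 protein-coding genes held at least 1. The territory of a gene, meaning the bases closer to its starts than to those of any other protein-coding gene, bears on such a share. Its median was 296 kb for the 10 genes and 45.5 kb for all protein-coding genes. The 6 genes Gfra1, Gfra2, Ret, Etv1, Foxp1 and Runx1 fell among the 20% of genes with the widest territories (135 kb and wider). In that class 21.3% of genes held a peak, and 2 of these 6 did. Those 2, Etv1 (1027 kb) and Gfra2 (907 kb), had the widest territories of the 6. Among genes with a territory at least as wide as that of Etv1, 40.1% held a peak. Gfra3 (42.8 kb) and Pou3f1 (41.4 kb) had narrower territories, of a size class (34.2 to 61.4 kb) in which 5.37% of genes held a peak. Per length, the 10 territories carried 1.22 peaks per Mb (0.395 to 2.84, exact Poisson interval) against 0.924 over the whole list, a density whose interval includes that of the list.

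Measured by distance alone, a peak lay within 100 kb of a start for 3 of the 10 genes (Gfra3, Pou3f1 and Prph), where 21.0% of protein-coding genes had one. The nearest peak, whichever gene it was assigned to, lay at a median of 303 kb from a start of the 10 genes and 345 kb from a start of all protein-coding genes. No peak lay within 10 kb of a start of any of the 10 genes, so none of these 5 peaks was at a promoter. Of all protein-coding genes, 3.09% held an assigned peak within 10 kb, a share that leaves out near peaks assigned to another gene.

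**Figure D1:**
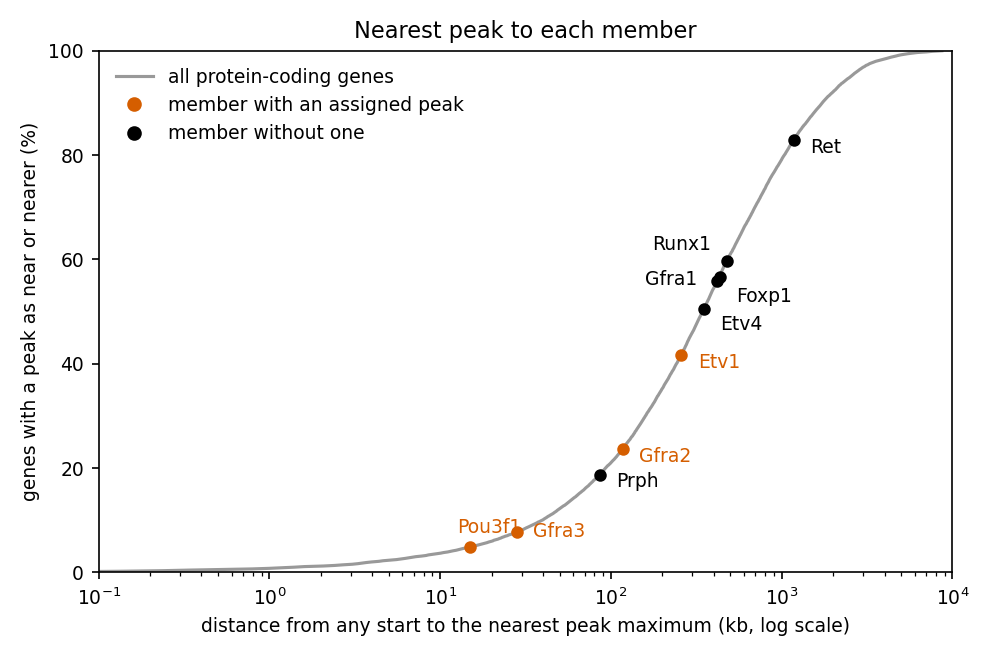
Distance from any start of a gene to the nearest peak maximum (kb, log scale) against the percentage of protein-coding genes with a peak as near or nearer, with the curve of all protein-coding genes in grey and the 10 genes as points, orange where a peak was assigned to the gene and black where none was. Pou3f1 (4.86%) and Gfra3 (7.67%) lie low on the curve, Gfra1, Etv4, Foxp1 and Runx1 lie near its middle, and Ret (82.9%) lies far up.

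Among the receptor genes, Gfra3 carried the closest peaks. Gfra3 encodes GFRα3, the co-receptor for artemin. The stronger of its 2 peaks (chromosome 18, 34851693 to 34852192) scored 76.82 for ChIP and 0 for background, with 58 tags (44 to 75, exact Poisson interval), which placed it at rank 248 of 2454 and at percentile 89.9. Its maximum lay in an intron of Gfra3, 28.1 kb downstream of the start and 2.39 kb short of the end of the gene.

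The weaker Gfra3 peak (chromosome 18, 34846381 to 34846880) scored 41.75 for ChIP and 0.02 for background, with 24 tags (15.4 to 35.7), close to the list's median score of 40.95. It was a separate region, 5.31 kb from the stronger peak and 2.93 kb past the end of Gfra3. Its assignment was close: the start of Cdc23, a subunit gene of the anaphase-promoting complex, was only 1.83 kb farther than that of Gfra3. A further peak, of score 36.4, lay 40.5 kb from the Gfra3 start but only 28.1 kb upstream of the Cdc23 start, and was assigned to Cdc23. The end of Gfra3 was thus flanked by 3 peak regions, of which the intronic one scored highest.

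Gfra2, which encodes the co-receptor for neurturin, held a peak far from its starts. The peak (chromosome 14, 71641651 to 71642150) was intergenic, 325 kb downstream of the nearest Gfra2 start and 262 kb past the end of the gene. Its ChIP score was 60.76 with 43 tags (31.1 to 57.9), at rank 446. Its background score of 4.93 was 8.11% of the ChIP score and higher than that of most peaks (percentile 95.7, where the median peak had 0.345). On the ratio of ChIP score to background score plus 1 it stood at percentile 13.1, against 81.8 by score. Only 4.65% of peaks lay as far or farther from their assigned start. A nearer peak, of score 51.92 and 117 kb upstream of Gfra2, lay at -0.114 kb from the start of Dok2, a docking protein gene, and was assigned to Dok2.

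Ret, the gene of the signalling receptor, lay far from any peak, and Gfra1, the gene of the GDNF co-receptor, lay at an ordinary distance. The nearest peak to Ret was 1179 kb upstream, near Adipor2, with a score of 38.81 and 18 tags, and 82.9% of protein-coding genes had a peak as near or nearer. The nearest peak to Gfra1 was 432 kb upstream, near Hspa12a, with a score of 50.59 and 56 tags, and 56.7% of protein-coding genes had a peak as near or nearer. Ret had 0 peaks within 500 kb of a start, and Gfra1 had 1.

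By ChIP score, the ETS and POU factor genes held the strongest and the weakest of the 5 peaks. The Etv1 peak (chromosome 12, 39821202 to 39821701) scored 127.4 for ChIP and 0 for background, with 119 tags (98.6 to 142), at rank 52 of the list. It was intergenic, 257 kb downstream of the nearest Etv1 start and 227 kb past the end of the gene, and the next protein-coding start, that of Arl4a, was 662 kb farther still. Of the 159 peaks that lay as far or farther from their assigned start, this peak had the highest score. A U7 small nuclear RNA gene start was nearer, at 177 kb, so the peak left Etv1 when all annotated genes could receive it.

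The Etv1 window matched other places in the genome. A blastn search of its 500 bases found 208 further matches at an identity of 75% to 93.9%, of which 106 spanned at least 250 bases and the longest spanned 438. At an identity of at least 90% there were 4 further matches, the longest of 89 bases. The maxima of 2 other peaks in the list, assigned to Ell2 (score 36.67) and Zeb2 (score 30.51), lay in these long matches. The windows of Gfra2, Pou3f1 and the weaker Gfra3 peak had 0 further matches, and that of the stronger Gfra3 peak had 4, none longer than 137 bases. How reads from such copies were placed is not given in the sources used here, and the part of repeated sequence in the Etv1 score was not tested.

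Pou3f1, which encodes the POU factor also called Oct6 or SCIP, held a peak of low score near its start. The peak (chromosome 4, 124349573 to 124350072) was intergenic, 14.9 kb downstream of the start and 11.9 kb past the end of this short gene. Its ChIP score was 32.92 with a background score of 0 and 31 tags (21.1 to 44), at rank 1971 and percentile 18.9. By tags it stood at percentile 49.1, and by the ratio of ChIP score to background score plus 1 at 58.0. The lowest score in the list was 29.98. The start of the neighbouring gene Utp11l was 6.03 kb farther than that of Pou3f1.

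Etv4, which encodes the GDNF-induced ETS factor, held no peak, and its nearest was 349 kb upstream, near Nags (45.77, 25 tags). Foxp1 and Runx1 span 341 and 225 kb and have wide territories (793 and 610 kb), and neither held a peak, as was the case for most genes of that territory class, where 21.3% held one. Their nearest peaks lay 419 kb (38.54, 25 tags, assigned to Gm765 at -242 kb from its start) and 480 kb (48.71, 37 tags, assigned to Kcne2 at -76.6 kb) from a start. Runx1 encodes a Runt-domain factor found in some cranial and spinal motor neurons. For Prph, peaks lay upstream at 85.9 kb (32.39, 24 tags) and 120 kb (75.74, 61 tags), and these were assigned to the tubulin genes Tuba1a and Tuba1b.

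**Figure D2:**
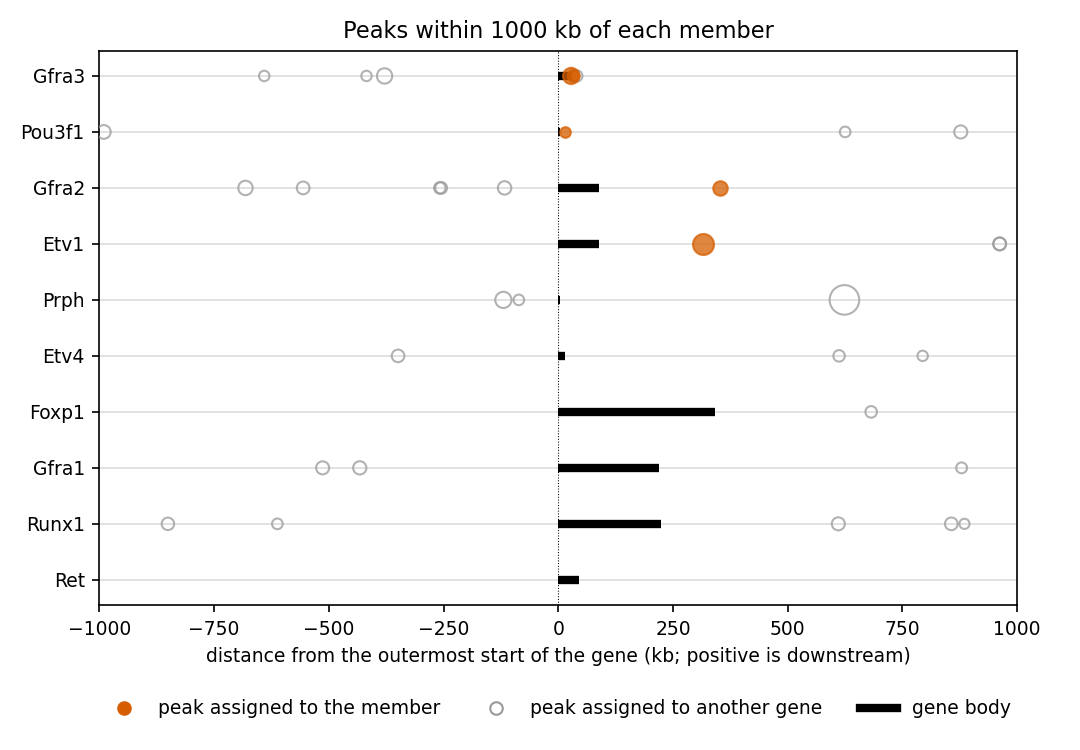
Peaks within 1000 kb of each of the 10 genes, by distance from the outermost start in the direction of transcription (kb), with filled orange circles for peaks assigned to the gene, open grey circles for peaks assigned to another gene, circle area in proportion to the ChIP score and black bars for gene bodies. All 5 assigned peaks are downstream of the start, the Gfra3 and Pou3f1 peaks close to the gene and the Gfra2 and Etv1 peaks far beyond its end.

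The 5 peaks ran from 32.92 to 127.4 with a median score of 60.76, and the list had quartiles of 34.26 and 54.07. The Etv1, Gfra2 and stronger Gfra3 peaks were above the upper quartile, the weaker Gfra3 peak was between the quartiles, and the Pou3f1 peak was below the lower. A background score of 0 was found at the Etv1, Pou3f1 and stronger Gfra3 peaks, and at 31.1% of all peaks. Each of the 5 peaks was the only one in its region.

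**Figure D3:**
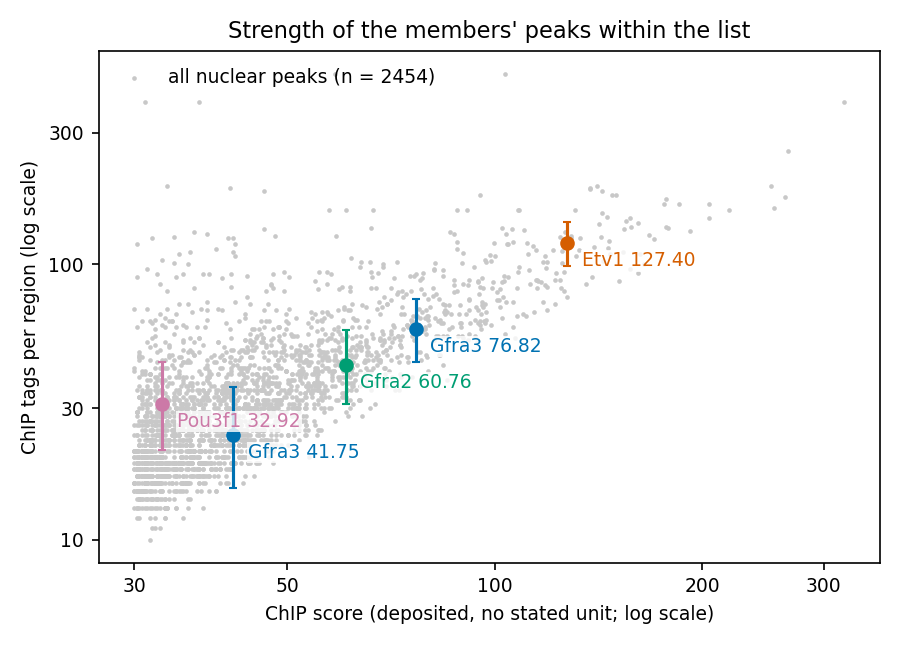
ChIP score (log scale, no stated unit) against ChIP tags per region (log scale) for all 2454 nuclear peaks in grey and the 5 peaks of the 4 genes in colour, named by gene and score, with exact Poisson 95% intervals on the tags. The Etv1 peak lies among the strongest of the list at 127.4 and 119 tags, and the Pou3f1 peak lies near the lower end of scores at 32.92 with 31 tags.

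Homeodomain letters were counted in the 200 bases centred on each maximum, on both strands, beside the share of all 2454 peaks and of 200-base flanks 1 kb to each side. The palindromic core TAATTA was in 3 of the 5 peaks (Gfra2, Pou3f1 and the stronger Gfra3 peak), where 34.3% of all peaks and 6.50% of flanks held it. An ATTA followed by a TAAT with 3 bases between was in 4 of the 5 peaks, all but that of Etv1, where 4.93% of all peaks (4.11 to 5.86) and 0.632% of flanks held it. The spacing of 3 bases had been picked out earlier on this same list, so its frequency at these peaks is a description. It lay 10 to 20 bp and 15 to 25 bp to the right of the maximum at the stronger Gfra3 peak and at Gfra2, and 58 to 48 bp and 43 to 33 bp to the left of it at the weaker Gfra3 peak and at Pou3f1, counted along the plus strand.

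At 3 of these 4 peaks the 2 cores were part of a longer run, TAATTA with 3 bases and a further TAAT, visible in the printed Gfra2 and Pou3f1 sequences and which the stronger Gfra3 peak held on the minus strand. This longer form was searched for after the sequences had been seen. Of 2454 peaks, 58 held it (2.36%, 1.80 to 3.04), as did 6 of 4908 flanks (0.122%). Gfra2, Gfra3 and Pou3f1 held this longer form, but it was chosen with sequences of these peaks in view. Its low frequency in the list is therefore a description and no separate result. Pou3f1 held the fullest form, TAATTA on each side of the 3 bases, likewise searched for after the sequences had been seen. That fullest form was in 10 peaks (0.407%) and 0 flanks. The shorter form, with ATTA and TAAT alone, was found at 2 peaks of the same gene for 3 genes in the whole list: Gfra3, Akap2 and Spry2. The spaced elements overlap TAATTA and the repeat of TAAT with 5 bases between, which was in the same 3 peaks and in 6.03% of all peaks, so these counts are not separate from each other.

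The number of cores did not follow the score. ATTA or TAAT occurred 7 times in the Gfra2 window, 6 times at Pou3f1, 3 times at each Gfra3 peak and 1 time at Etv1, where the list's median was 3. The strongest peak, that of Etv1, thus had the fewest, with its nearest TAATTA at 216 bp from the maximum. GC content was 45.5% at Etv1, 44.5% at Gfra2, 50% at Pou3f1, and 51.5% and 52.5% at the stronger and weaker Gfra3 peaks, around the list's median of 48%.

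**Figure D4:**
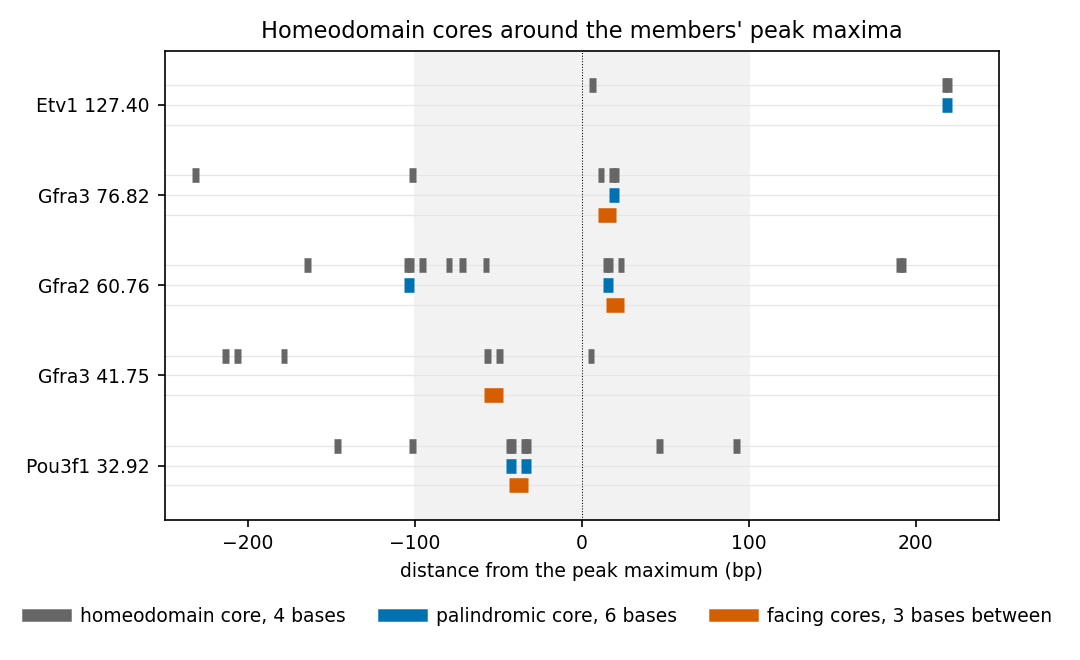
Positions of homeodomain cores within 250 bp of the maxima of the 5 peaks (bp along the plus strand), with the core of 4 bases in grey, the palindromic core of 6 bases in blue and the facing cores with 3 bases between in orange, and the 200 bp window shaded. The facing cores are present within 58 bp of the maximum at 4 peaks and absent at Etv1, whose window holds 1 core.

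Letters of other factor families were counted in the same 5 windows. The octamer ATGCAAAT (POU), the E-box CAGCTG, the ETS letters CCGGAA, the RUNX letters TGTGGT, the forkhead letters GTAAACA and the HOX-PBX letters TGATTGAT were in 0 of the 5 windows, where 4.24%, 13.9%, 4.77%, 12.3%, 2.36% and 2.04% of all peaks held them. The SOX letters ATTGTT were in the Etv1 window (14.3% of all peaks). LIF signals through STAT3. The relaxed STAT letters TTCNNNGAA were in the weaker Gfra3 window, where 5.01% of all peaks and 5.85% of flanks held them. The strict form TTCCNGGAA was in none of the 5 windows (0.733% of all peaks). A link of these letters to LIF was not tested. With 5 windows, an absence of letters held by so few peaks has little weight.

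The wider pathway was read from lists whose members were chosen with earlier results of these data known. Of 13 genes for GDNF ligands and receptors, 3 (23.1%, 5.04 to 53.8, with a median territory of 137 kb) held a peak, where 8.16% of all protein-coding genes did: Ncam1, an alternative GDNF receptor, with a score of 145.87, and Gfra3 and Gfra2. The median territory of this list falls in the widest class (135 kb and wider), where 21.3% of all genes held a peak, near the share of this list. The ligand genes Gdnf, Nrtn, Artn and Pspn held none, although a peak of score 43.09 lay 6.07 kb from the Nrtn start and was assigned to Dus3l. Of 14 genes for RET adaptors and signalling, 1 held a peak (7.14%), the kinase gene Src, at 0.25 kb from its start with a score of 33.72. This share is near that of all protein-coding genes.

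Among the relatives of the pool factors, Etv5, the third PEA3-family ETS gene, held a peak of score 51.92 at 4.49 kb upstream of its start. A peak was held by 1 of 4 FOXP genes, Foxp2 (47.64, 49.2 kb upstream), and by 1 of 4 POU class 3 genes, Pou3f1. Each share was 25% (0.631 to 80.6). The median territories of these lists were 435 and 525 kb, of the widest class, where 21.3% of all genes held a peak. The RUNX list (Runx1, Runx2, Runx3 and Cbfb) had 0 of 4, and the intermediate filament list, with Prph and the neurofilament genes, had 0 of 8, which leave shares of up to 60.2% and 36.9%. Of 30 motor column and pool genes, 7 held a peak (23.3%, 9.93 to 42.3), by score Etv1, Sema3e (67.45), Chodl (55.67), Nkx6-1 (46.84), Esrrg (44.97), Pou3f1 and Aldh1a2 (30.51). Of all protein-coding genes 8.16% held one, but the median territory of this list was 155 kb, against 45.5 kb for all protein-coding genes and 145 kb for those with a peak. The median of 155 kb falls in the widest class, where 21.3% of all genes held a peak, near the share of this list. Etv1 and Pou3f1 are among the 10 genes already described. Sema3e encodes a guidance cue, Nkx6-1 a homeodomain factor of motor neuron progenitors, and Aldh1a2 a retinoic acid-making enzyme. The Hox genes of that list, from Hoxa5 to Hoxd10, held none. Their territories ran from 4.51 kb (Hoxd9) to 17.2 kb (Hoxc6), all among the 20% of genes with the narrowest territories. In that class only 1.14% of genes held a peak, so the lack of peaks at these Hox genes has little weight.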

How the data were processed

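Reads of 4 Flag ChIP libraries were aligned with BWA 0.5.8a to mm9, per the submitters' processing notes. No label or header names the peak caller, its threshold or any pooling of libraries. What the authors deposited is 1 list of peaks with a ChIP score and a background score of no stated scale and a whole-number tag count per region. The depth of each library is therefore unknown, and no source says which library the background score came from. A mitochondrial peak (1 of 2455) was left out. Distances are negative upstream. Intervals are 95% intervals and cover counting error only.

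The 10 genes and all gene lists were chosen with earlier results of these data known. All 10 members were named, and of each list the genes with a peak, up to 6 by score (7 for the motor column and pool list, where Aldh1a2 is named as well, after its value was seen), with neighbours of the members' peaks. Genes came from GENCODE M1 (NCBIM37, the build called mm9), with 22367 protein-coding genes. All transcript starts of protein-coding genes were used. No test was run, because no column belongs to a single library. The 14 motifs were searched in sequence read with pysam 0.24.0, and copies with blastn 2.17.0 (e-value at most 1e-20). Assignment and motif search were tested on simulated data.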

Additional observations from a re-analysis of the deposited data

How the results depend on the processing

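Which genes held a peak depended mostly on the distance allowed. Main values were 4 genes and 5 peaks, with 8.16% of all protein-coding genes holding one. Limited to peaks within 100 kb of the assigned start, 2 genes and 3 peaks remained, where the share of all genes was 6.91%. Within 10 kb, 0 genes and 0 peaks remained, where the share of all genes was 3.09%. Among the 50% of peaks with the highest scores that share was 4.65%, with 3 genes and 4 peaks. Among the top 25% it was 2.45%, with 3 genes and 3 peaks. Counting any peak within 100 kb of a start gave 3 genes (Gfra3, Pou3f1 and Prph), 5 peaks and 21.0% of all genes. These are not the same 5 peaks: those assigned to Cdc23 and Tuba1a came in, and the Etv1 and Gfra2 peaks dropped out. With all annotated genes the Etv1 peak was lost (3 genes, 4 peaks), and the share of all protein-coding genes was 5.91%. Without the Etv1 peak, an alternative chosen after seeing the data, 3 genes and 4 peaks were left, and the share of all genes was 8.16%. Outermost starts, 1 peak per region and, added after seeing the data, starts of transcripts typed protein-coding each gave 4 genes and 5 peaks. The shares of all genes were then 8.13%, 8.16% and 8.14%. TAATTA was in 3 of 5 peaks at 100 bp and 4 at 500 bp, where the Etv1 window gained one. By tags in place of score, the Pou3f1 peak moved from percentile 18.9 to 49.1 and the weaker Gfra3 peak from 52.3 to 30.2. By the ratio of ChIP score to background score plus 1, they stood at 58.0 and 75.4, the Gfra2 peak fell from 81.8 to 13.1, and the stronger Gfra3 and the Etv1 peaks stood at 95.4 and 99.3 in place of 89.9 and 97.9. No paired analysis was possible because no column belongs to a single library or set, and no library could be left out for the same reason.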

Other observations

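Promoter letters were counted for the members that a RefSeq table of GRCm38.p6 holds, from 250 bases before to 50 after the start. It matched 5 of the 10 genes (Gfra1, Etv1, Foxp1, Runx1 and Prph) with 9 promoters. TAATTA was in 1 of these, a Foxp1 promoter, and in 5.29% of all 32851 promoters. The spaced ATTA and TAAT with 3 bases between was in 0 of the 9 promoters and in 0.481% of all, so its absence from the 9 has little weight. The 4 peaks that held it belong to Gfra2, Gfra3 and Pou3f1, and none of these genes has a promoter among the 9. The ETS letters CCGGAA were in 2 of the 9 (Gfra1 and Runx1) and in 14.9% of all. No peak lay within 10 kb of the starts of these 5 genes, a distance at which 3.09% of all protein-coding genes held an assigned peak. That share leaves out near peaks assigned to another gene.

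The 121 peaks with the spaced cores had a median ChIP score of 46.84, and the other peaks 40.68. Of the 4 such peaks described here, those of Gfra2 (60.76) and the stronger at Gfra3 (76.82) were above this median, and those at Pou3f1 (32.92) and the weaker at Gfra3 (41.75) were below it.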
